A study of Mus musculus with 4 samples.

Results

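The small subunit cytosolic ribosomal proteins are the proteins of the ribosomal subunit that binds the messenger RNA and reads its codons. The genes were chosen by name: every gene spot named Rps with a number, with an optional a, x or l after it, together with Rpsa and Fau, and without the S6 kinases, whose names start with Rps6k. This rule found 33 genes on 58 probes, of 27962 gene names on 41174 probes in all. Of the 58 probes, 55 were bright enough to be tested (clearly above background in 1 of the channels, on 3 or more of the 4 arrays), as were 24104 probes of the whole array, and every one of the 33 genes kept a tested probe. The 3 probes left out, 1 each of Rps2, Rps6 and Rps19, were not well above background on any array in either channel (signals of 66 to 85 in unstimulated and 51 to 68 in stimulated cells, before correction).

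The cells were mouse mucosal mast cells differentiated in vitro, the mast cells of epithelia such as the gut lining. They were either stimulated with interleukin 18 (IL-18), an inflammatory cytokine related to IL-1, or kept without it. Each of 4 biological replicates was a 2-colour Agilent array that held the stimulated sample in Cy5 and its own unstimulated control in Cy3. The sources used here do not give the mouse strain, the dose or duration of IL-18, or whether the replicates came from separate animals or separate cultures. The comparison is of transcript levels with and without IL-18 within a replicate. All arrays had the same dye orientation, so the effect of IL-18 and a difference between the dyes cannot be told apart for any single probe. In RNA from a whole culture, a change in the make-up of the culture and a change in RNA per cell cannot be told apart either.

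Ribosomal protein genes are transcribed at high levels in nearly all cells, and their messages usually start with a C inside a run of pyrimidines (C or T in the DNA). That start, called a terminal oligopyrimidine tract, lets the kinase mTOR and the binding protein LARP1 control how many of these messages are loaded onto ribosomes. The proteins are made in roughly equal amounts and are assembled on the small subunit's ribosomal RNA in the nucleolus, where assembly factors hold the unfinished particle. The finished subunit has a body with a platform, which carries the channel through which the message enters and leaves, and a head, which swivels as the message moves.

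The starts of the genes are shown here because the pyrimidine run is the feature these messages are known for. RefSeq start sequences (assembly GRCm38.p6) were at hand for 25 of the 33 genes. Rps14, Rps20, Rps27a and Rps29 were among the genes not matched. In 7 genes the annotated start was a C followed by at least 4 bases that were each C or T. Their windows, from 10 bases before the annotated start to 20 bases from it onward, read 5′ to 3′ as follows, with the longest unbroken run of C or T in capitals:
Rps6: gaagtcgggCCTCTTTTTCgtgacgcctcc
Rps27: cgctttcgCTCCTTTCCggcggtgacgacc
Rps18: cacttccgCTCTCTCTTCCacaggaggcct
Fau: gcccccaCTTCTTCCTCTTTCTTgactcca
Rps10: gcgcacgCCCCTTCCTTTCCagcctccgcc
Rps21: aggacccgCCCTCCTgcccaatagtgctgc
Rps15a: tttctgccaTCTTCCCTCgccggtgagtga
These windows lie at chr4:86857348-86857377 (minus strand) for Rps6, chr3:90213629-90213658 (minus strand) for Rps27, chr17:33955646-33955675 (minus strand) for Rps18, chr19:6057937-6057966 (plus strand) for Fau, chr17:27635225-27635254 (minus strand) for Rps10, chr2:180257369-180257398 (plus strand) for Rps21 and chr7:118116128-118116157 (minus strand) for Rps15a. The following 3 genes were among those with the largest log2 ratios and had no such start, and they were chosen for display after their values were seen:
Rps28: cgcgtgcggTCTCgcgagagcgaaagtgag
Rps23: cggctgggcggggCTTCCCgcaatgccttg
Rps12: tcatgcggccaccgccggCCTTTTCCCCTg
They lie at chr17:33824543-33824572 (minus strand) for Rps28, chr13:90923112-90923141 (plus strand) for Rps23 and chr10:23787190-23787219 (minus strand) for Rps12. Among all annotated starts of the small subunit genes, 7 of 30 (23.3%) had the C and the pyrimidines after it, against 8 of 45 (17.8%) for large subunit genes and 823 of 32851 (2.51%) for all starts in the table. A run of at least 8 C or T within the window was present at 10 of 30 small subunit starts (33.3%). The share was also 33.3% for large subunit starts, and 11.2% for all starts. Rps24 held a run of 9 that spanned its annotated start, which is a T, and Rps26 held a run of 9 that began a few bases after its start. Where transcription started in these cells was not measured.

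Promoters were searched from 250 bases before to 50 bases after each annotated start, on both strands. The motif CCGGAAG, a core site of ETS-family factors such as GABP, was found at 12 of 30 small subunit starts (40.0%). It was found at 33.3% of large subunit starts and at 8.86% of all starts. GCCATNTT, the core of the YY1 site, was found at 6 of 30, at 22.2% of large subunit starts and at 6.05% of all starts. The Sp1 core GGGCGG was found at 17 of 30 (56.7%), against 60.0% of large subunit starts and 35.7% of all starts. TATAAA, the letters of the TATA box, was found at 2 of 30 (6.67%), against 11.1% of large subunit starts and 13.6% of all starts. Of these 2, the TATAAA of Rps28 does not lie in the 250 bases before its start, which are printed below. These are matches of letters, not measured binding. The 250 bases before the start are printed for Rps6 and Rps28, which had the highest log2 ratios by their brightest probes, with the CCGGAAG of Rps6 and the GCCATNTT of Rps28 in capitals:
Rps6: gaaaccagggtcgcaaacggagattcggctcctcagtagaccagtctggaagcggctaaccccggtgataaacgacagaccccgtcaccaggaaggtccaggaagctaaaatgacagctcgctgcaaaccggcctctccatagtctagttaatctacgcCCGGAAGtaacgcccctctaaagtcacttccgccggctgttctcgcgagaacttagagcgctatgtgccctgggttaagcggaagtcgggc
Rps28: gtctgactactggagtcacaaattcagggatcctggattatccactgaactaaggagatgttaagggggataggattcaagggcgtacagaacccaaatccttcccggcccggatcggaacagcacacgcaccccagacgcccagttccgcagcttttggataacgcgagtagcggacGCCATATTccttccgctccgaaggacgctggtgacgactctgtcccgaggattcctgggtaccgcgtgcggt
The region of Rps6 is chr4:86857368-86857617 (minus strand), and its capitals begin 91 bases before the start. That of Rps28 is chr17:33824563-33824812 (minus strand), and its capitals begin 72 bases before the start.

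The log2 ratio of the stimulated over the unstimulated channel is given throughout, after background correction and loess normalization within each array, so that 0 means a probe lies on the array's own trend for its brightness. Of the 55 tested small subunit probes, 43 (78.2%) were called higher with IL-18, 1 was called lower and 11 did not pass the threshold (limma, Benjamini-Hochberg adjusted p below 0.05 over all 24104 tested probes). Of all tested probes, 18.1% were called higher and 16.1% lower. Because these genes were picked out with results of this same comparison known, their counts and log2 ratios are a description and nothing is read from their distance to that background. Their median log2 ratio was 0.50, with a range from −0.37 to 1.20, beside a median of 0.02 for all tested probes. With each gene represented by its brightest tested probe, 30 of 33 genes were called higher and none lower, where 19.7% of all genes were called higher and 13.7% lower. Those 33 log2 ratios ran from 0.07 to 1.02 with a median of 0.59, which is a ratio of 1.05- to 2.02-fold. Without replicate 2, 37 of the 55 probes were called higher beside 6% of all tested probes, and without replicate 3 the values were 39 and 7.24%. The 3 genes not past the threshold were Rps15a, Rpsa and Rps21.

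**Figure D1:**
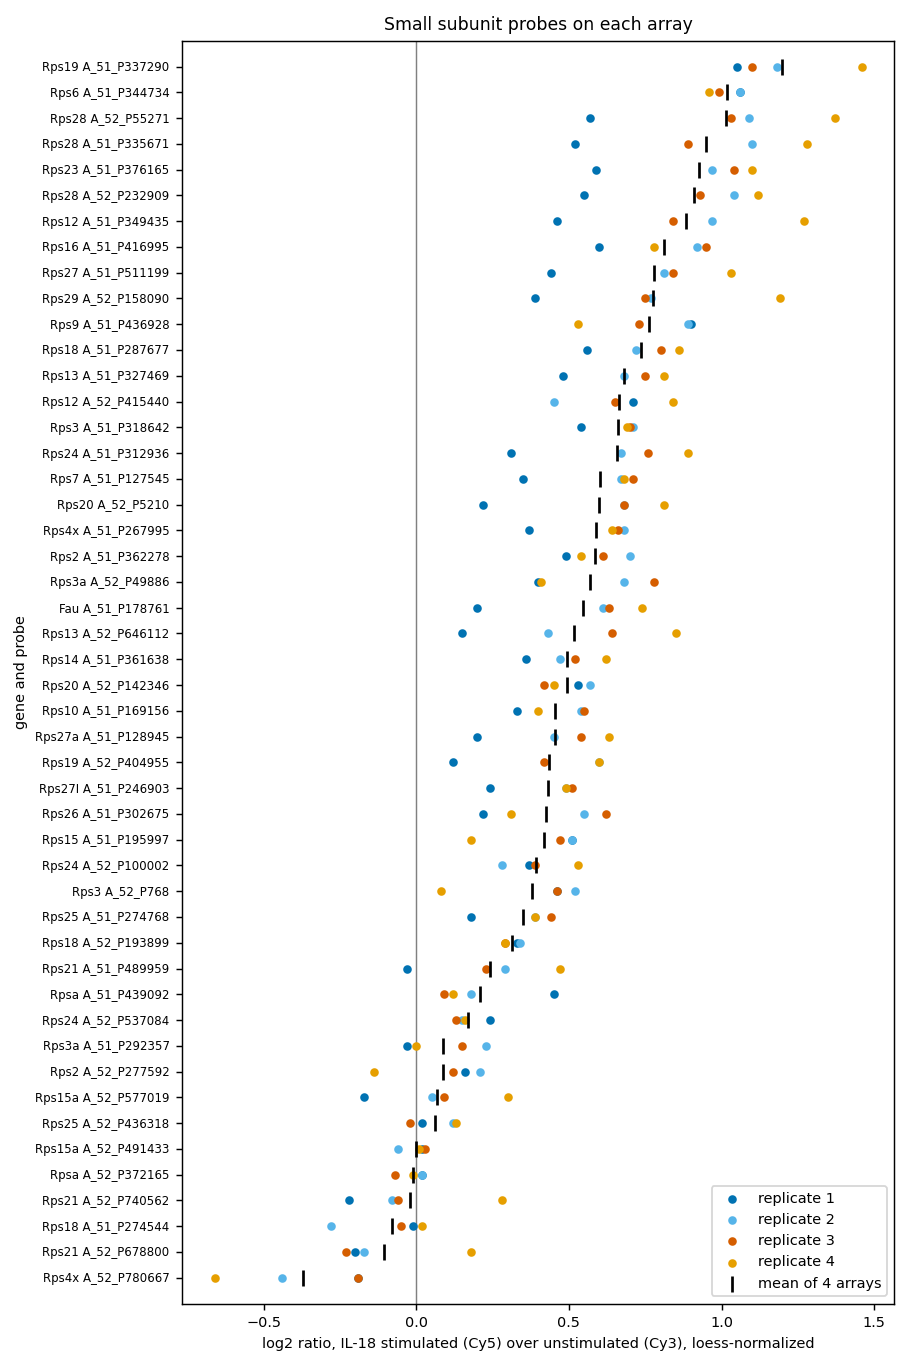
Each line is 1 of 48 tested small subunit probes, with its log2 ratio of IL-18 stimulated over unstimulated cells on each of the 4 arrays as coloured points and the mean of the 4 as a black bar. Most probes lie to the right of 0 on all 4 arrays (37 of 48), and the dark blue points of replicate 1 are often the leftmost (31 of 48).

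The size of these ratios differed with the normalization. The scanner software's own log ratio, which removes background and dye bias in another way, gave the 55 probes a median of 0.32 with 46 above 0, and it called 38 higher and 1 lower. Centring each array on its median with no correction for brightness gave a median of 1.87 with 54 above 0. In that setting the median over all tested probes was 0.43, and 98.8% of all calls were higher. For most genes the log2 ratio was above 0 in all of these settings. By brightest probe, 31 of 33 genes were above 0 with the software's log ratio and 33 of 33 with median centring. Rps15a and Rps21 were the exceptions, at −0.24 and −0.06 with the software's log ratio. Of 390 probes outside both ribosomal subunits with a mean log2 intensity of at least 15, 382 were above 0 with median centring. The 33 of 33 in that setting therefore says little about direction. With the software's log ratio, 193 of those 390 probes were above 0.

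**Figure D2:**
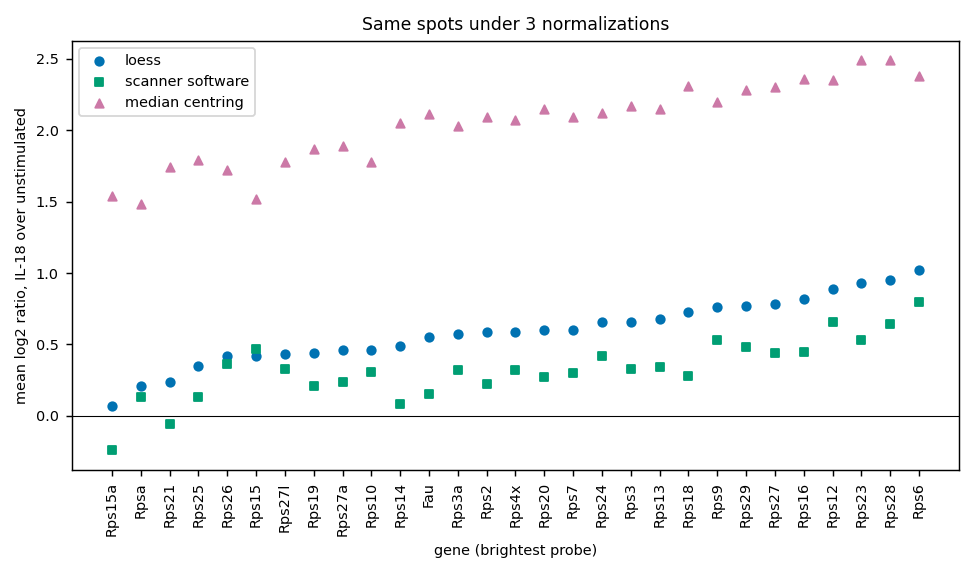
Mean log2 ratio over 4 arrays (vertical axis) of the brightest probe of 29 small subunit genes, ordered by the loess value, under loess (blue circles), the scanner software's log ratio (green squares) and median centring (pink triangles). Median centring places the genes between 1.48 and 2.49, and the software's log ratio places every gene but Rps15 below its loess value, with Rps15a and Rps21 below 0.

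The head of the subunit is built from the products of 14 of these genes, and all 14 brightest probes were called higher, with a median log2 ratio of 0.56. Beside this stand 30 of all 33 small subunit genes and 19.7% of all genes on the array, by brightest probe. The split into head, body and platform was made with the values known. Rps28, which lies near the path by which the message leaves, had the largest log2 ratio among head genes. Its brightest probe gave 0.52, 1.10, 0.89 and 1.28 on replicates 1 to 4, a mean of 0.95 ± 0.32 (SD, n = 4) or 1.93-fold. The other Rps28 probes gave 1.01 ± 0.33 and 0.91 ± 0.25, so the 3 probes differed by less than their spread over arrays. Replicate 1 was the lowest array for all of them, at 0.52 to 0.57.

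Rps12, a protein of the beak of the head, gave 0.46, 0.97, 0.84 and 1.27, a mean of 0.89 ± 0.33. Its other, dimmer probe gave 0.66 ± 0.16. Rps16, whose tail reaches toward the bound transfer RNA, gave 0.60, 0.92, 0.95 and 0.78, a mean of 0.82 ± 0.16. For both genes the brightest probe was above 0 on every array and lowest on replicate 1. Rps29, a small zinc-binding protein, gave 0.39, 0.77, 0.75 and 1.19, a mean of 0.77 ± 0.33. Its uncorrected signal in the unstimulated channel was 44217, 48082, 39888 and 28884, while that in the stimulated channel was 208082, 223320, 194080 and 215620. The unstimulated channel of replicate 4 was thus the lowest of the 4 for Rps29, on the array with its highest ratio.

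Rps3 lines the opening through which the message enters and has a separate role in DNA repair. Its brightest probe gave 0.54, 0.71, 0.70 and 0.69, a mean of 0.66 ± 0.08, and its other probe gave 0.46, 0.52, 0.46 and 0.08, a mean of 0.38 ± 0.20. The probes of Rps3 stood apart on different arrays, replicate 1 for the brightest and replicate 4 for the other. Rps27a is made as a fusion of ubiquitin with a ribosomal protein and gave 0.20, 0.45, 0.54 and 0.63, a mean of 0.46 ± 0.19. Ubb, a source of ubiquitin alone, gave 0.20 ± 0.14 and was called higher, and the difference between these genes was not tested.

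Rps25, which some viral messages need to start translation, had the smallest log2 ratio among head genes, at 0.18, 0.39, 0.44 and 0.39, a mean of 0.35 ± 0.12. Rps15, whose tail reaches toward the decoding site, gave 0.51, 0.51, 0.47 and 0.18, a mean of 0.42 ± 0.16. Here replicate 4 was the low array and the other 3 lay within 0.47 to 0.51. By their brightest probes, Rps18 lay at 0.73, Rps20 at 0.60 and Rps10 at 0.46.

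Rps19, a head protein and the gene most often mutated in Diamond-Blackfan anaemia, had probes that differed in size. The brightest gave 0.12, 0.60, 0.42 and 0.60, a mean of 0.44 ± 0.23. A dimmer probe on the RefSeq messenger RNA gave 1.05, 1.18, 1.10 and 1.46, a mean of 1.20 ± 0.18 or 2.29-fold, which was the highest value of all 55 probes. The ranges of the 2 probes over the arrays did not overlap, and both were called higher. With the software's log ratio the same probes gave 0.21 and 1.25, and the first was no longer called. The dimmer probe was thus above 1 under both normalizations.

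The body and platform are built from the products of the other 19 genes, of which 16 were called higher by the brightest probe, with a median log2 ratio of 0.59. Over all genes by brightest probe, 19.7% were called higher. Rps6, the protein of the small subunit that the S6 kinases phosphorylate, had the largest log2 ratio of all 33 genes by brightest probe. It gave 1.06, 1.06, 0.99 and 0.96 on replicates 1 to 4, a mean of 1.02 ± 0.05 or 2.02-fold. Its uncorrected signal was 17877, 20611, 18099 and 17347 in unstimulated cells and 117470, 106518, 95767 and 101112 in stimulated cells. All 4 arrays gave nearly the same ratio, and the SD of 0.05 compares with a median SD of 0.16 over the 55 probes. With the software's log ratio the value was 0.80, again the highest by brightest probe.

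Rps23, a protein of the decoding centre, gave 0.59, 0.97, 1.04 and 1.10, a mean of 0.93 ± 0.23. Replicate 1 was the low array and the other 3 lay close together. Rps27 gave 0.44, 0.81, 0.84 and 1.03, a mean of 0.78 ± 0.25. Its close relative Rps27l, known as a target of p53, gave 0.24, 0.49, 0.51 and 0.49, a mean of 0.43 ± 0.13. Rps27 was above Rps27l on each array, but as these are different probes the difference between the genes was not tested, and similar sequences may bind to both.

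Rps2, which sits at the entry of the message channel, gave 0.49, 0.70, 0.61 and 0.54 by its brightest probe, a mean of 0.59 ± 0.09. The other tested probe of Rps2, also bright, gave 0.16, 0.21, 0.12 and −0.14, a mean of 0.08 ± 0.16, and was not called. The ranges of the 2 Rps2 probes did not overlap, although both are listed under the same RefSeq messenger RNA. Rps24 gave 0.31, 0.67, 0.76 and 0.89, a mean of 0.66 ± 0.25, and its other probes, on separate and dimmer transcript sequences, gave 0.39 and 0.17. Rps26, which touches the message at the exit, gave 0.22, 0.55, 0.62 and 0.31, a mean of 0.42 ± 0.19. Fau, made as a fusion of a ubiquitin-like protein with a ribosomal protein, gave 0.20, 0.61, 0.63 and 0.74, a mean of 0.55 ± 0.24. For Fau the software's log ratio was 0.15 and was not called.

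Rps4x, encoded on the X chromosome, was the gene whose probes were called in opposite directions. Its brightest probe gave 0.37, 0.68, 0.66 and 0.64, a mean of 0.59 ± 0.15, with stimulated signals from 153905 to 186030. The other probe, designed on an expressed sequence tag, gave −0.19, −0.44, −0.19 and −0.66, a mean of −0.37 ± 0.23, with signals from 142 to 216 in unstimulated and 160 to 200 in stimulated cells. The probe called lower was therefore one with signals close to the dim end of the array.

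Rps15a, Rpsa and Rps21 were the genes with the smallest log2 ratios. Rps15a, which binds the central domain of the ribosomal RNA, gave −0.17, 0.05, 0.09 and 0.30, a mean of 0.07 ± 0.20. Rps21 gave −0.03, 0.29, 0.23 and 0.47, a mean of 0.24 ± 0.21, and its other probes gave −0.02 and −0.10. For both genes replicate 1 was below 0 and replicate 4 was the highest. Rpsa, a ribosomal protein also known as the laminin receptor, gave 0.45, 0.18, 0.09 and 0.12, a mean of 0.21 ± 0.16, with replicate 1 the highest. The brightest probe of Rps15a had uncorrected signals from 32995 to 50109 in unstimulated and 112238 to 144953 in stimulated cells, and after loess the channels of an array differed by at most 0.30. Rps15a and Rps21 are also among the 7 genes whose start is a C followed by pyrimidines, printed above. Those 7 genes ran from 0.07 (Rps15a) to 1.02 (Rps6) with a median of 0.55, and the 18 matched genes without that start ran from 0.21 to 0.95 with a median of 0.60.

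**Figure D3:**
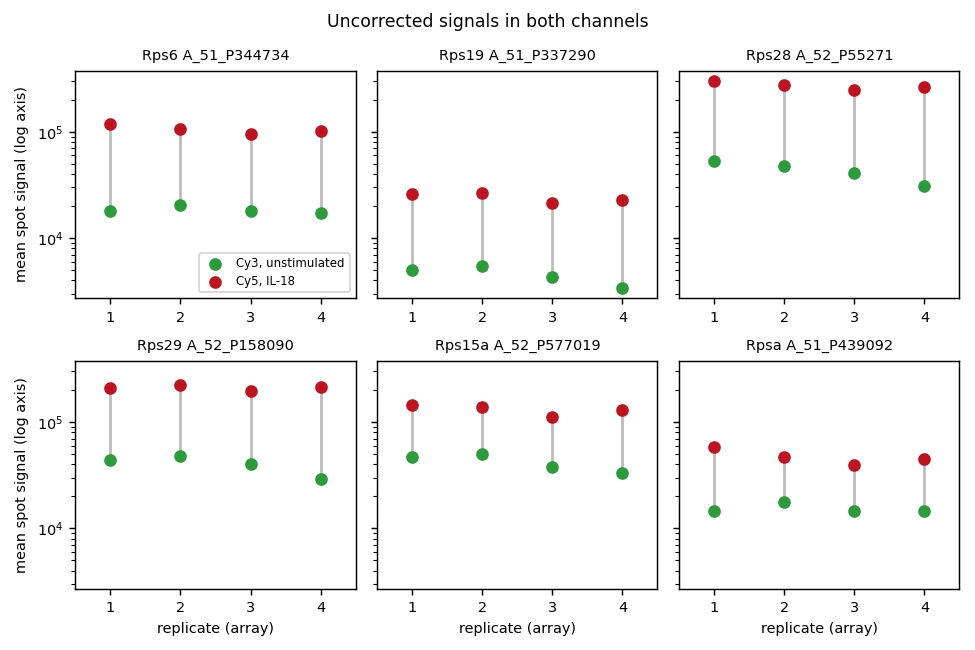
Mean spot signal before any correction (log axis, scanner units) on the 4 arrays for 6 probes (for Rps28 the probe with the mean of 1.01, for Rps19 the dimmer probe), green for unstimulated cells (Cy3) and red for IL-18 stimulated cells (Cy5), with a grey line joining the channels of an array. The stimulated channel is the brighter one for all 6 probes, Rps15a included. Cy5 was also brighter than Cy3 over the whole array (mean gene spot signal 2968 to 3737 against 1156 to 1385). The part of that in these 6 probes was not tested. The green point of replicate 4 is the lowest of the 4 for each of the 6 probes.

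Other genes of the body and platform were called higher by their brightest probe. Rps9 and Rps13, which bind the ribosomal RNA early in assembly, gave 0.76 ± 0.18 and 0.68 ± 0.14. Rps7 gave 0.60 ± 0.17. Rps3a and Rps14, which lie on the platform side where the message leaves, gave 0.57 ± 0.19 and 0.49 ± 0.11. On replicate 1 Rps13, Rps7, Rps3a and Rps14 had their lowest value, and Rps9 had its highest there.

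Diamond-Blackfan anaemia is a failure of red cell formation caused by loss of 1 copy of a ribosomal protein gene. A list of genes mutated in it held 9 of these small subunit genes, among them Rps19, Rps24, Rps26 and Rps28. All 9 were called higher by their brightest probe, with a median of 0.60 and a range from 0.42 to 0.95. That median stands beside 0.59 for all 33 genes, of which 30 were called higher. Over all genes by brightest probe, 19.7% were called higher. The list was put together with the values known and may not be complete. Rps15a, the gene with the smallest log2 ratio (0.07, not past the threshold), was not on it. Its absence from the list does not mean that it has no part in the disease, and the count of 9 depends on which genes were listed.

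Of the 33 genes, 17 had more than 1 tested probe, 39 probes in all. For 9 of the 17, every probe was called higher. The probes of Rps13 (0.68 and 0.52) and Rps20 (0.60 and 0.49) lay close together, and those of Rps18 ran from −0.08 to 0.73. In Rps3a they gave 0.57 and 0.09. All 16 genes with a single tested probe were called higher. Of all tested probes on the array, 18.1% were called higher and 16.1% lower. Genes of this family have many processed pseudogenes, and the probe sequences were not used here, so signal from near-identical copies cannot be told apart from that of the named gene.

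The log2 ratios were larger for bright probes than for dim ones. Among the 45 small subunit probes with a mean log2 intensity of at least 13, 38 were called higher and none lower, with a median of 0.57. Among the 10 tested probes below that, 5 were called higher and 1 lower, with a median of 0.12. Many bright spots had been read from a second scan at a low setting of the detector (the photomultiplier), with the values scaled up. That low scan was used for the stimulated channel of 43 or 44 small subunit probes per array, against 3.22% to 4.02% of all gene spots. For the unstimulated channel it was used for 32 to 36, against 1.06% to 1.41%. The 32 probes with both channels from the low scan on all arrays had a median of 0.60, with 29 called higher. The 12 with the low scan in the stimulated channel on at least 1 array, but not in both channels on all of them, had a median of 0.43, with 9 called higher. The 11 tested probes with no low scan had a median of 0.06, with 5 called higher and 1 lower. These counts stand beside 18.1% of all tested probes called higher and 16.1% called lower. Among 390 probes outside both ribosomal subunits with a mean log2 intensity of at least 15, 50.3% were called higher. The part of brightness and of the second scan in the ratios was not tested.

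Probes of other genes as bright as these also lay above 0 after loess, though by less. At a mean log2 intensity of at least 15, the 36 small subunit probes had a median of 0.59 with 91.7% called higher, and the 390 probes of genes outside both ribosomal subunits had a median of 0.20 with 50.3% called higher and 13.6% lower. With the software's log ratio the same sets had medians of 0.32 and 0.00. At an intensity of at least 16 the medians were 0.66 for 26 small subunit probes and 0.36 for 98 other probes. Of these, 88.5% of the small subunit probes and 71.4% of the other probes were called higher. None of the small subunit probes and 11.2% of the other probes were called lower. Other bright probes thus lay above 0 under loess as well, and under the software's log ratio their median lay at 0.07 or below.

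**Figure D4:**
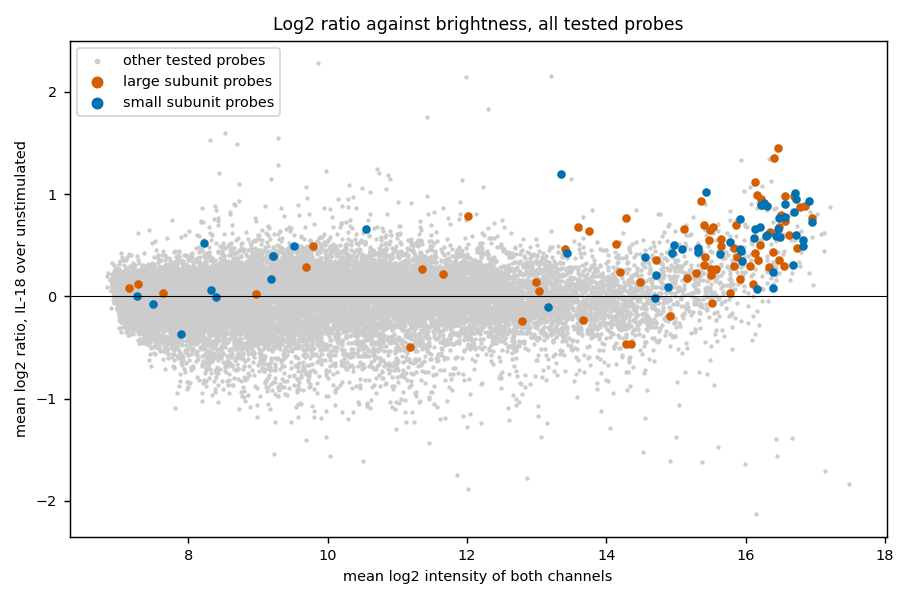
Mean log2 ratio over 4 arrays (vertical axis) against mean log2 intensity of both channels (horizontal axis) for all 24104 tested probes, with the 55 small subunit probes in blue, large subunit probes in orange and the rest in grey. Small and large subunit probes lie together at the bright end, mostly between 0 and 1, where the grey points also spread above 0.

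The large subunit genes, the partners of these proteins in the ribosome, gave nearly the same picture. Of 75 tested large subunit probes, 57 (76.0%) were called higher and 5 lower, with a median of 0.42, and the 49 of them with an intensity of at least 15 had a median of 0.55. Mitochondrial ribosomal proteins, which make up the separate ribosome of the mitochondrion, had 41 of 118 tested probes called higher (34.7%) and 15 lower, with a median of 0.07. Mitochondrial probes were dimmer, with a median log2 intensity of 11.4 beside 15.9 for the small subunit, and no test of a difference between the families was made. Rack1, a signalling protein bound to the head of the small subunit and listed on the array as Gnb2l1, gave 0.86 ± 0.19 and was called higher.

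Genes that act on the small subunit were read from lists made for their role. Among 34 small subunit assembly factors, 4 were called higher, 9 lower and 21 not past the threshold, with a median of 0.00. Over all genes by brightest probe, 19.7% were called higher and 13.7% lower. The lower ones included Bms1 at −0.95 ± 0.46, a GTPase of the early assembly particle, and Rrp12 at −0.80 ± 0.52, which helps export the subunit. The higher ones were led by Dimt1, a methyltransferase of the small subunit's RNA, at 0.26 ± 0.09 and Snu13, a protein of guide RNA particles, at 0.26 ± 0.14. Both values are smaller than those of most small subunit genes.

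Among 19 initiation factors that bind the small subunit, 3 were called higher, 3 lower and 13 not past the threshold, with a median of 0.00. These counts stand beside 19.7% of all genes called higher and 13.7% called lower. Eif1, which guards the choice of the start codon, gave 0.44 ± 0.11, and Eif3k, a subunit of the scaffold factor eIF3, gave 0.43 ± 0.21. Eif3d and Eif3l of the same factor gave −0.26 ± 0.17 and −0.19 ± 0.09 and were called lower.

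Of 24 kinases and regulators of ribosomal protein synthesis, 4 were called higher and 6 lower, with a median of 0.03. These counts stand beside 19.7% of all genes called higher and 13.7% called lower. Mycn, a transcription factor of the Myc family, gave 0.41 ± 0.06 and Tial1, a protein that binds pyrimidine-tract messages under stress, gave 0.31 ± 0.20. Rptor, the mTOR partner that selects its substrates, gave −0.83 ± 0.53 and Eif4ebp2, a translation repressor that mTOR inactivates, gave −0.42 ± 0.13, and both were called lower. The S6 kinase genes gave 0.14 ± 0.12 for Rps6kb1, which was not called, and −0.30 ± 0.23 for Rps6kb2, which was called lower. Rptor and Rps6kb2 had log2 intensities of 7.88 and 7.85, close to the dim end of the array, which limits their ratios. With the software's log ratio they gave −1.67 and −0.57. Larp1, Myc and Mtor did not pass the threshold, at 0.08 ± 0.10, 0.06 ± 0.19 and −0.20 ± 0.27.

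Of 15 abundant housekeeping transcripts, 7 were called higher and 4 lower, with a median of 0.20. These counts stand beside 19.7% of all genes called higher and 13.7% called lower. Tpt1, a message that also starts with a pyrimidine tract, gave 0.67 ± 0.16, and Eef2, the elongation factor whose message has such a tract too, gave −0.91 ± 0.36. Actb, the cytoskeletal actin, gave −0.59 ± 0.08.

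Between arrays, the small subunit probes moved largely together. Their medians were 0.36, 0.55, 0.57 and 0.56 on replicates 1 to 4, and 48, 50, 49 and 52 of the 55 probes were above 0. Replicate 1 was the lowest array for 38 of the 55 probes, where it was lowest for 22.6% of all probes. Replicate 4 was the highest for 27 of 55, where it was highest for 28.2% of all probes. That order depends on the normalization, since the median-centred medians were 2.56, 1.53, 1.62 and 1.83, with replicate 1 the highest, and those of the software's log ratio were 0.25, 0.32, 0.32 and 0.35. The channels were compared over arrays after loess and a further step (limma Aquantile) that gave all arrays the same distribution of mean log2 intensity. There the unstimulated channel varied more over the arrays than the stimulated one for 34 of 55 probes. The median ranges were 0.28 and 0.20 on the log2 scale. The lowest unstimulated value was on replicate 4 for 33 probes, and the matching share of all probes was not computed.

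Each array carried 43379 gene spots, of which 49.9% to 54% passed the software's background test in unstimulated cells and 57.9% to 62.7% in stimulated cells. No small subunit spot was saturated or marked as an outlier. Of the mast cell markers all 10 were tested, and Fcer1a, Cma1, Cpa3, Mcpt1, Mcpt2 and Kit were bright, with log2 intensities from 15.4 to 17.0. The other mast cell markers were Gata2 at 15.64, Tpsb2 at 14.29, Ms4a2 at 12.99 and Hdc at 11.54. Of the 10, 5 were called higher and 1 lower (Tpsb2, with a log2 ratio of −0.74). Markers of T cells, B cells, red cells and fibroblasts reached at most 8.13, and those of neutrophils 9.52. The macrophage marker Lyz2 stood at 16.2 with a log2 ratio of 0.08, and of the 5 macrophage markers 1 was called higher (Emr1, at 0.28). Both basophil markers on the array (Mcpt8 and Cd200r3) were called higher, at 0.41 and 0.24, and of 2 tested eosinophil markers 1 was (Ear1, at 0.72). Of 2 tested dendritic cell markers 1 was called lower (Itgax, at −0.21 with a log2 intensity of 11.01), and H2-Ab1 stood at an intensity of 9.61. The part of other cells in the small subunit values was not tested.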

How the data were processed

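RNA of stimulated and unstimulated cells was hybridised together on 4 arrays in 2 colours, Cy5 for IL-18 and Cy3 for the unstimulated control, per the labels. The intensity values used are, for both channels, a spot's mean pixel brightness and the median of the pixels around it, per the file headers and as written by Agilent Feature Extraction 9.1, which the submitters' processing notes name. For bright spots that software drew on a scan at a low setting of the detector (the photomultiplier), scaled up. The deposited files also hold the software's log10 ratio of Cy5 over Cy3, and a deposited series table holds the same log10 ratios to within 0.00496. Both were turned to log2 and used as alternatives only. The software's log10 ratio had its dye bias removed by the authors' software, per the file headers. Marks for background, saturation and outliers were taken from the deposited files, per the file headers. No genome build is given in the sources used here.

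Background was corrected with normexp (offset 50), log2 ratios were normalized by loess within each array with control spots and outlier spots at weight 0, and spots of a probe were averaged. Probes clearly above background (the software's mark) in 1 channel, the same on 3 or more of 4 arrays, were tested against 0 with limma 3.58.1 in R 4.3.3 (lmFit, eBayes, two-sided, Benjamini-Hochberg over 24104 probes, threshold 0.05). The steps were tested on simulated arrays. With 4 arrays the smallest p an exact sign-flip test allows is 0.125, so none was run. The number of arrays limits the precision. Gene names are those of the array; the accession of 44 of the 58 small subunit probes was found in the RefSeq gene table of GRCm38.p6, where the Rps3a probes are now named Rps3a1. A gene stands for its brightest tested probe.

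The genes and all lists were chosen with earlier results of these data known. Values of every array are given for the 6 genes with the largest and the 6 with the smallest log2 ratios, for genes with a known separate role, and for genes whose probes differed by at least 1 or were called in opposite directions. A few genes that these rules pick are not reported here singly, and they stay in the counts and medians. From the other lists the 2 largest and 2 smallest called values are named. Rps27, Rps9, Ubb, Rack1 and the S6 kinase, Larp1, Myc and Mtor values were named after they were seen.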

Additional observations from a re-analysis of the deposited data

Results flagged for a closer look

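For each of the 55 tested small subunit probes, the array farthest from the others was compared with the range of all 4 (Dixon's ratio, at its 95% critical value). Chance marks about 1 in 20 such groups, and 9 of the 55 were marked, of which 7 are described here. On replicate 1, the probes below the other 3 arrays were Rps27l at 0.24 (others 0.49 to 0.51), the brightest probe of Rps3 at 0.54 (others 0.69 to 0.71), the brightest of Rps4x at 0.37 (others 0.64 to 0.68) and Rps7 at 0.35 (others 0.67 to 0.71). On replicate 4, Rps15 stood below the rest at 0.18 (others 0.47 to 0.51), as did the dimmer probe of Rps3 at 0.08 (others 0.46 to 0.52), while the dimmest probe of Rps21 stood above the rest at 0.18 (others −0.23 to −0.17). The probes share arrays, so these marks are not independent of each other. All values are log2 ratios after loess.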

How the results depend on the processing

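The calls were recomputed under alternatives chosen at the same time as the tests. Of the 43 small subunit probes called higher, 34 kept that call in all 15 alternatives with a test. Median centring and no within-array normalization gave 13970 and 13861 probes higher and 176 and 73 lower over all tested probes, so that 98.8% and 99.5% of calls were higher beside 53.0% with loess, and no small subunit probe was called lower in either (0 in each, beside 52 called higher). The median of the small subunit probes was 1.87 and 1.99 there, and 0.32 with the scanner software's log ratio and 0.32 with the series table. With one array left out, 1387 to 4505 probes were called higher and 904 to 4975 lower, the lowest without replicate 2; without replicate 3 the counts were 1685 and 1258. Small subunit probes called higher then numbered 37 to 44, and those called lower 0 to 2. Rps15a turned to −0.24 with the software's log ratio and the series table and to −0.01 without replicate 4 (range −0.01 to 0.15 with an array left out), and Rps21 turned to −0.06 with both tables; the cause was not tested. With the software's log ratio, Fau, Rps14, Rps25 and the brightest probe of Rps19 were no longer called. Rps25, Rps26 and Rps19 were not called without replicate 2, nor Rps19 without replicate 3. Loess without ribosomal protein probes called 45 of 55 higher, including Rpsa and Rps21. Arrays of slide 1 (replicates 1 and 2) and of slide 2 (3 and 4) with slide as a random block (consensus correlation −0.0563) left 44 called higher. Dim probes have signals near background, which limits their ratios. The main test already uses the pairing, because each ratio is the difference within 1 pair. No further paired analysis was possible, as no second group shares its replicate numbers.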
